A study of Mus musculus with 72 samples.

Results

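Livers of germ-free (GF) mice were compared with livers of conventional, specific pathogen-free (SPF) mice in the absence of the liver clock. All these mice were male C57BL/6 animals with loxP-flanked Bmal1 and Albumin-Cre (LKO mice), in which Cre removes Bmal1 from the cells that express Albumin, so the other cells of the liver keep the gene. The libraries were chosen by their labels, namely all 18 GF LKO libraries and 16 of the 18 SPF LKO libraries, 34 of the 72 libraries of the series, with 3 mice per group at each of 6 zeitgeber times (ZT, hours after lights on) except where a library was left out. The mice ate autoclaved chow under 12:12 light and dark, were 10 to 14 weeks old when moved to individual housing, and were killed some weeks later, every 4 hours from ZT2 to ZT22, with 1 library per mouse. The GF line was derived from the SPF line and lived in flexible film isolators, so microbial status and housing cannot be told apart. WT mice, which carry the floxed alleles without Cre, served only to ask whether a difference was particular to LKO livers.

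SPF LKO ZT14 replicate 2 and SPF LKO ZT18 replicate 1 were left out because their clock genes looked wild type. Npas2, the partner of CLOCK whose transcript is high when Bmal1 is lost, stood at 0.22 and 1.81 counts per 1000000 (CPM, scaled over all 72 libraries) in these libraries. The kept SPF LKO libraries held 24.2 to 25.4 CPM at ZT14 and 27.6 to 36.7 CPM at ZT18, and the SPF WT libraries at most 0.207 and 2.76 CPM. Bmal1 itself, listed as Arntl, lay on the same scale between 8.49 and 16.6 CPM in the kept SPF LKO libraries and between 7.01 and 13.5 CPM in the GF LKO libraries. Further on, CPM of single genes in GF and SPF LKO livers alone are scaled over the 34 libraries compared, unless stated. The counts cover the whole gene and not the deleted exon alone, so the level of Arntl is a weak check of the deletion. Total counts ran from 17369927 to 19923220 in GF LKO libraries and from 18766956 to 22076113 in the SPF LKO libraries kept. On the first principal component, with 27.9% of the variance of the 500 most variable genes, 90.9% of the spread lay between GF and SPF, and on the second component, with 12.1% of the variance, 80.5% lay between ZT.

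The liver meets gut microbes through the portal vein, which brings bacterial products, short-chain fatty acids and bile acids that bacteria have altered. Several of these act on nuclear receptors of the hepatocyte, such as the xenobiotic receptors PXR and CAR, the bile acid receptor FXR and the aryl hydrocarbon receptor. BMAL1 with CLOCK or NPAS2 binds E-box elements and drives the clock genes and many metabolic genes. In livers whose hepatocytes lack BMAL1, daily rhythms that remain can come, among other sources, from feeding and from signals of the rest of the body.

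In LKO livers, GF mice had lower Cyp3a11, Cyp3a25, Cyp3a59 and Cyp2b10, higher Sult1e1, Cyp2c40 and Mt1, and higher transcripts of most genes of cholesterol synthesis, ribosomal proteins and the respiratory chain, counted for each list where it is described. Of 13016 genes tested over all ZT, 5508 (42.3%) differed between GF and SPF LKO livers at an adjusted p under 0.05 (edgeR's quasi-likelihood test with ZT as a factor and Benjamini-Hochberg adjustment). Of these, 2731 genes (21% of those tested) were higher and 2777 (21.3%) lower in GF livers. Most differences were small, since 82.2% of the genes called had a log2 fold change under 0.5 in size, with a median size of 0.27. Only 163 genes (1.25%) were called with a log2 fold change of at least 1, 73 higher and 90 lower, and 139 of these 163 had the same sign at all 6 ZT. The median log2 fold change of all genes tested was -0.018. The lowest library of a group exceeded the highest library of the other in 35 genes (0.269%), 24 higher and 11 lower in GF livers. Bulk RNA gives the level per unit of liver RNA, and fewer cells of a type cannot be told apart from less RNA per cell.

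**Figure D1:**
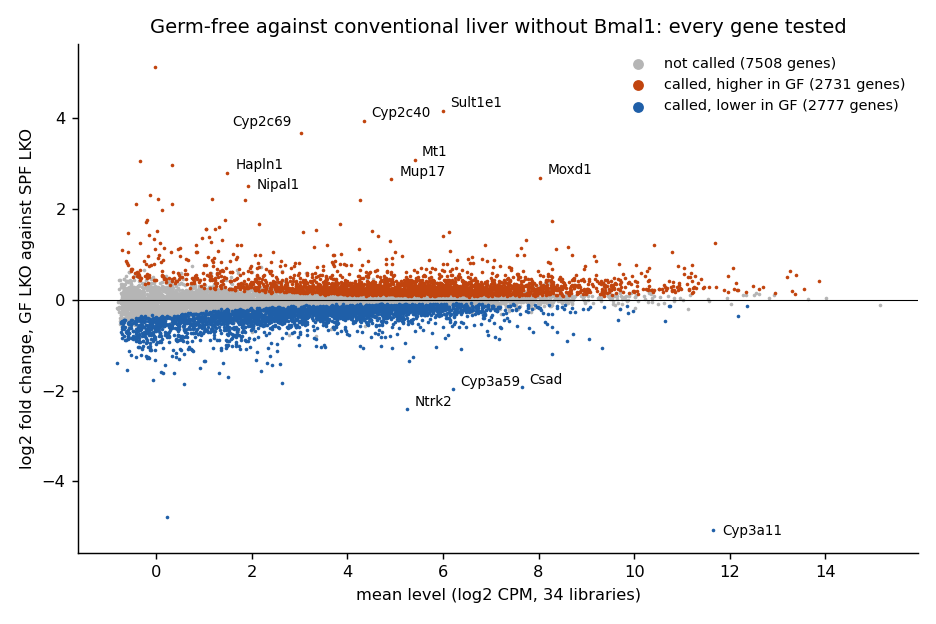
Log2 fold change of GF LKO against SPF LKO livers (vertical axis) against the mean level in log2 CPM (horizontal axis) for each of the 13016 genes tested, with genes called higher in red, called lower in blue and not called in grey. Cyp3a11 lies at the lower right with a log2 fold change of -5.06 at a high level, and Sult1e1, Cyp2c40 and Cyp2c69 lie at the top.

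The direction of the small differences went with the length of the gene model in the counting table. Among the 3254 genes with the shortest models (up to 2646 bases) 1110 were called higher and 320 lower, with a median log2 fold change of 0.094. Among the 3253 genes with the longest models (6727 bases and more) 349 were called higher and 1120 lower, with a median of -0.091. The medians of the same genes in WT livers were 0.097 and -0.104. With a trend over gene length removed from each library, 5187 genes were called and 166 had a log2 fold change of at least 1. RNA quality per library was not part of the data used, and its part in this trend was not tested.

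The largest decrease belonged to Cyp3a11, the main Cyp3a enzyme of mouse liver and a classical target of PXR. SPF LKO livers held 4830, 6450 and 8540 CPM of Cyp3a11 (lowest, median and highest of 16 libraries) and GF LKO livers 126, 182 and 365 CPM (18 libraries). No GF library came near an SPF library, and the log2 fold change was -5.06 ± 0.13 (SE; edgeR adjusted p = 1.76e-24). The decrease lay between -4.52 at ZT2 and -5.66 at ZT10. Cyp3a59, on the same chromosome, ranged from 80.4 to 187 CPM in SPF livers and from 24.0 to 45.1 CPM in GF livers, again without overlap (log2 fold change -1.97 ± 0.09, adjusted p = 2.52e-17). Cyp3a25 fell from a median of 883 to 408 CPM without overlap, and Cyp3a13, the remaining Cyp3a gene tested, was not called. Reads that fit several places were not counted, so values of closely related genes of the Cyp3a, Cyp2c, Mup and Ugt1a families are uncertain.

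The promoters of Cyp3a11 and Cyp3a59, which fell together, and of Sult1e1 and Cyp2c40, which rose, are shown as examples, Cyp3a11 and Sult1e1 because they carry the largest decrease and increase of the genes named by size and the others because they belong to Cyp families that moved in opposite directions. They were chosen after the values and matches were seen. Each is 300 bases of RefSeq sequence on GRCm38.p6, 250 before and 50 after the start site, read 5′ to 3′ on the strand of the gene. Capitals mark matches, on either strand, to the nuclear receptor hexamers AGGTCA and AGTTCA, the E-box CACGTG, the interferon element core GAAANNGAA and the sterol element core TCACNCCAC. Cyp3a11 lies on chromosome 5 from 145879805 to 145880104 (minus strand), Cyp3a59 on chromosome 5 from 146079008 to 146079307 (plus strand), Sult1e1 on chromosome 5 from 87591562 to 87591861 (minus strand) and Cyp2c40 on chromosome 19 from 39812765 to 39813064 (minus strand).
Cyp3a11: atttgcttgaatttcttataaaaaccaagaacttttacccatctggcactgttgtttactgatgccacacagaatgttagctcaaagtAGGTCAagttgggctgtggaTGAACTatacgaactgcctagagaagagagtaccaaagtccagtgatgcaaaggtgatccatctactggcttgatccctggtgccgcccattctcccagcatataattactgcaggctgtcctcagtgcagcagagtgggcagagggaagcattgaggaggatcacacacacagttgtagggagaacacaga
Cyp3a59: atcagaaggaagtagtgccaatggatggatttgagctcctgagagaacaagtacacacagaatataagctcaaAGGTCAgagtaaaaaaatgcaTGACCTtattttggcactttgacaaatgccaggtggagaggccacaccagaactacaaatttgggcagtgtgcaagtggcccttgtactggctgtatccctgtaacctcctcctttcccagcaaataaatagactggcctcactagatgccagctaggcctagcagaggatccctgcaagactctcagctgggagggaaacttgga
Sult1e1: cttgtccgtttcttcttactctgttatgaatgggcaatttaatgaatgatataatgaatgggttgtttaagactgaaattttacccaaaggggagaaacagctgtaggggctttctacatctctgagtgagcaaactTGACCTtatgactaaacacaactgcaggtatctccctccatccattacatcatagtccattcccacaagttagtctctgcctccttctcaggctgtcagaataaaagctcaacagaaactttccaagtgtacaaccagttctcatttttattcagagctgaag
Cyp2c40: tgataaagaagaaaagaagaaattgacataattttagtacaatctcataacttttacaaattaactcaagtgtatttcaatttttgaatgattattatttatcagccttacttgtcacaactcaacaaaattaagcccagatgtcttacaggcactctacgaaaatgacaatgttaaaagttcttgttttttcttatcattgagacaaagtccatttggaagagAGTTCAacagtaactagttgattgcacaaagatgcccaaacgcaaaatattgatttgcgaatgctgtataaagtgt
Cyp3a11 held an AGGTCA match and an AGTTCA match, and Cyp3a59 held 2 AGGTCA matches, 1 on each strand. Sult1e1 held 1 AGGTCA match and Cyp2c40 1 AGTTCA match, and none of these windows held an E-box, an interferon core or a sterol core. Over the 32544 RefSeq promoters of this length, 16.2% held AGGTCA, 14.0% AGTTCA, 7.17% CACGTG, 8.53% GAAANNGAA and 1.24% TCACNCCAC, so single matches are common. Of the 24 genes named by size, 19 had a promoter in the table.

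The list of xenobiotic receptors and their Cyp2b and Cyp3a targets had 8 members lower, 4 higher and 5 not called among 17 tested, with a median log2 fold change of -0.14. Cyp2b10, the standard target of CAR, fell from a median of 104 to 59.6 CPM (log2 fold change -1.08 ± 0.16), although the highest GF library (96.1 CPM) lay above the lowest SPF library (62.1 CPM). Cyp2a22, a low cytochrome P450, had medians of 1.22 and 0.539 CPM and also fell. The receptors themselves were not called, with medians of 68.4 and 67.1 CPM for Nr1i2 (PXR) and 34.1 and 34.7 CPM for Nr1i3 (CAR) in SPF and GF livers. The calls for lower levels thus included Cyp3a and Cyp2b enzymes but neither of these receptors. Among aryl hydrocarbon receptor genes, Ahr was higher (log2 fold change 0.27 ± 0.08), Cyp1a1 lower (-0.42 ± 0.13) and Cyp1a2 not called (0.11 ± 0.07), of 7 tested. Of this list 28.6% was called, below the share of all genes.

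Further decreases were large in genes of other functions. Ntrk2, which encodes a neurotrophin receptor, ranged from 46.2 to 121 CPM in SPF LKO livers and from 2.65 to 28.4 CPM in GF LKO livers, without overlap (log2 fold change -2.42 ± 0.23, adjusted p = 2.08e-09). Csad, which makes hypotaurine for taurine and so for bile acid conjugation, fell from a median of 302 to 80.4 CPM (-1.93 ± 0.15), and a single SPF library (133 CPM) lay below the highest GF library (140 CPM). Lhx6, a homeobox gene, fell from 4.32 to 1.18 CPM without overlap. Ugt1a9, a glucuronosyltransferase, had medians of 10.1 and 2.28 CPM, and Mme, the membrane peptidase neprilysin, 6.18 and 2.15 CPM. The other decreases named by size were Gm42047, Col27a1, Hcn3, Dpy19l3 and the pseudogene Serpina4-ps1, with log2 fold changes between -1.62 and -1.35. With all 18 SPF LKO libraries kept, the log2 fold change of Col27a1 was -2.32.

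The largest increase among genes at or above the level used for naming was that of Sult1e1, which sulfates estrogens. SPF LKO livers held 1.17, 4.29 and 28.5 CPM and GF LKO livers 25.2, 116 and 269 CPM (log2 fold change 4.16 ± 0.36, adjusted p = 2.48e-10). The highest SPF library just passed the lowest GF library, and the difference was positive at all 6 ZT, from 2.71 at ZT18 to 5.93 at ZT22. The related cytochromes P450 Cyp2c40 and Cyp2c69 rose by 3.93 ± 0.34 and 3.66 ± 0.37 on the log2 scale. Mt1, a metallothionein that binds zinc and copper, rose from a median of 5.48 to 49.2 CPM (3.07 ± 0.28), with the lowest GF library (8.91 CPM) below the highest SPF library (24.4 CPM). Moxd1, a monooxygenase-like gene, rose from a median of 58.4 to 455 CPM (2.68 ± 0.38).

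The remaining increases named by size had wide spreads. Mup17, a major urinary protein, ranged from 0.925 to 29.7 CPM in SPF livers and from 2.21 to 195 CPM in GF livers (log2 fold change 2.65 ± 0.57, adjusted p = 0.000378), and with all 18 SPF LKO libraries and no ZT term its call was lost (0.98). Ppp1r3g, a glycogen-targeting subunit of protein phosphatase 1, had medians of 0.389 and 2.36 CPM (2.22 ± 0.46), and its call was lost with all 18 SPF LKO libraries (1.33). Hapln1, Nipal1, Mup16, Gm13775 and B930025P03Rik rose by 1.76 to 2.80 on the log2 scale. Sult1a1, the main phenol sulfotransferase, is the tighter example, with 89.9 to 176 CPM in SPF livers against 204 to 361 CPM in GF livers and no overlap (0.97 ± 0.08, adjusted p = 3.98e-11). In the list of sulfotransferases and glucuronosyltransferases as a whole 7 members rose, 6 fell and 12 were not called, with 52% called beside 42.3% of all genes.

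**Figure D2:**
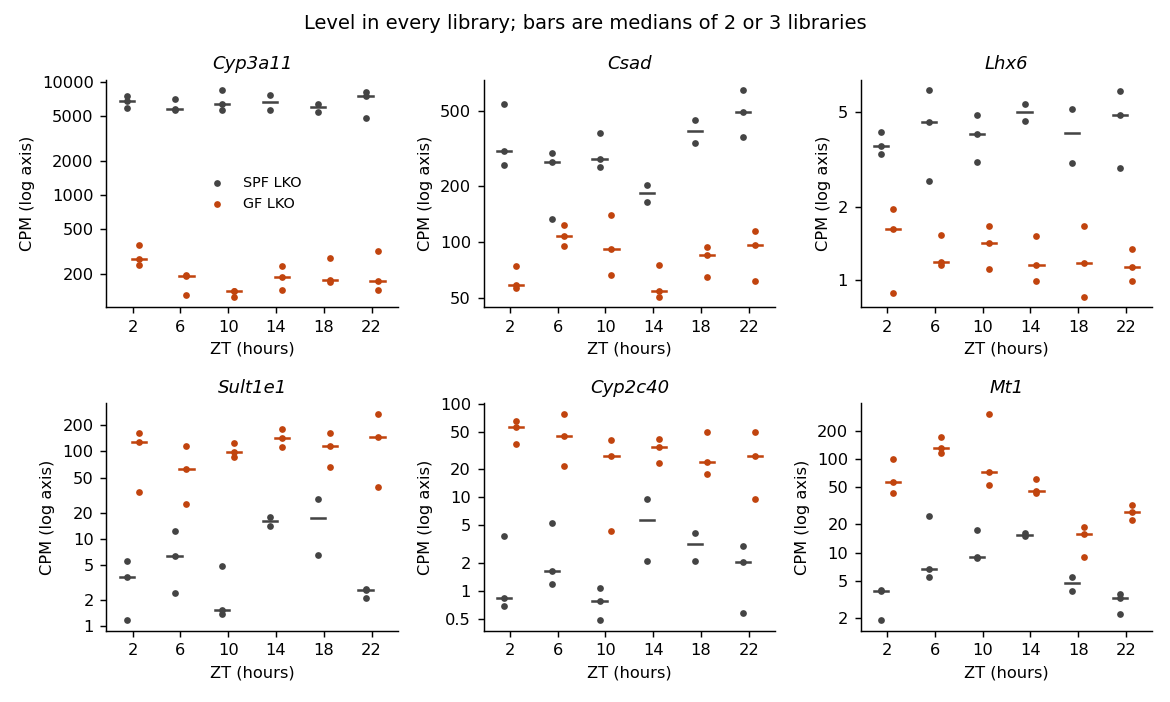
CPM (log axis) of 6 genes in every GF LKO library (red) and every SPF LKO library kept (dark grey) by ZT, with a bar at the median of the 2 or 3 libraries. Within each ZT every GF library lies below every SPF library for Cyp3a11, Csad and Lhx6 and above every SPF library for Sult1e1, Cyp2c40 and Mt1.

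Cholesterol synthesis was the list that moved most evenly. Of 27 genes tested, 25 rose, 0 fell and 2 were not called, with a median log2 fold change of 0.69 beside -0.018 for all genes. Ebp, a sterol isomerase, ranged from 155 to 237 CPM in SPF livers and from 255 to 386 CPM in GF livers without overlap (0.64 ± 0.05, adjusted p = 1.96e-12). Msmo1 and Cyp51, which demethylate lanosterol and its products, rose from medians of 222 to 506 and 199 to 432 CPM. Mvd, the mevalonate decarboxylase, rose by 1.05 ± 0.18 on the log2 scale, and Pmvk and Acat2 rose by 0.86 ± 0.10 and 0.69 ± 0.08. Srebf2, the transcription factor of the pathway, rose by 0.28 ± 0.09.

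Fatty acid and triglyceride synthesis moved in both directions, with 14 genes higher, 5 lower and 7 not called of 26. Acss2, which makes acetyl-CoA from acetate, rose from a median of 190 to 351 CPM (0.83 ± 0.10), and Fads2, a fatty acid desaturase, rose by 0.43 ± 0.06. Srebf1, the lipogenic transcription factor, fell from a median of 177 to 107 CPM (-0.87 ± 0.13, adjusted p = 3.73e-06), with overlap between the groups. Among genes of fatty acid oxidation and PPARA targets 5 rose, 7 fell and 28 of 40 were not called, so that the share called (30%) was below that of all genes. Acaa1b, a peroxisomal thiolase, fell by 0.61 ± 0.08 on the log2 scale and Pex11a by 0.37 ± 0.06, whereas Cyp4a32 rose by 0.63 ± 0.10.

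Among the genes on which the study centred, Ppara fell by 0.33 ± 0.09 on the log2 scale (adjusted p = 0.00503, a call lost without ZT2), and Aldh3a2, a fatty aldehyde dehydrogenase, by 0.40 ± 0.08 (adjusted p = 0.000256) or, with all 18 SPF LKO libraries kept, by 0.78. Cpt1a, the gate to mitochondrial oxidation, and Fabp1, the fatty acid binding protein of the hepatocyte, were not called (0.16 ± 0.07 and -0.03 ± 0.09). Pck1, which commits carbon to glucose, was higher in GF LKO livers, with 717, 1780 and 3090 CPM in SPF and 1630, 2760 and 4970 CPM in GF libraries (0.77 ± 0.14, adjusted p = 5e-05). Its difference was positive at 5 ZT and -0.29 at ZT18. Pck2, the mitochondrial form, fell (-0.47 ± 0.12) at a far lower level than Pck1. Its medians were 2.81 CPM in SPF and 1.99 CPM in GF LKO livers (scaled over all 72 libraries). Fbp1 and Eno1 were not called (0.09 ± 0.05 and 0.10 ± 0.05).

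Gluconeogenesis as a list had 11 genes higher, 2 lower and 12 not called of 25, with 52% called beside 42.3% of all genes. Its smallest p-values belonged to Got1, Mdh2 and Tat, which shuttle carbon and nitrogen between compartments or degrade tyrosine. Got1 rose from a median of 360 to 585 CPM (0.74 ± 0.08) and Tat from 1210 to 2190 CPM (0.74 ± 0.13). In glycolysis and glycogen metabolism 4 genes rose, 5 fell and 17 were not called of 26, a share (34.6%) below that of all genes. Pklr, the liver pyruvate kinase, fell from a median of 140 to 95.3 CPM (-0.79 ± 0.13), while Pfkfb1 and Pgk1 rose by 0.57 ± 0.08 and 0.38 ± 0.06 on the log2 scale.

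Amino acid catabolism and the urea cycle had 18 genes higher, 3 lower and 10 not called of 31 (median log2 fold change 0.22). Agxt, which detoxifies glyoxylate, ranged from 380 to 555 CPM in SPF livers and from 618 to 784 CPM in GF livers without overlap (0.55 ± 0.04, adjusted p = 2.48e-11). Hpd, an enzyme of tyrosine breakdown, rose by 0.41 ± 0.04. In serine, folate and methionine metabolism 12 genes rose, 3 fell and 8 were not called of 23. Bhmt, which remethylates homocysteine with betaine, ranged from 860 to 1620 CPM in SPF livers and from 1790 to 3190 CPM in GF livers without overlap (1.04 ± 0.07, adjusted p = 5e-13). Bhmt2 also separated the groups (0.54 ± 0.03), and Nnmt, which methylates nicotinamide, rose from a median of 94.7 to 240 CPM.

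In bile acid synthesis 9 genes rose, 1 fell and 6 were not called of 16 (median log2 fold change 0.19). Cyp2c70, which makes muricholic acids in mice, rose from a median of 1540 to 2510 CPM (0.70 ± 0.11), Cyp7b1 of the alternative pathway from 946 to 1510 CPM (0.62 ± 0.09), and Cyp27a1 by 0.22 ± 0.05 on the log2 scale. The members that open and branch the classical pathway were not called, with Cyp7a1 at 0.37 ± 0.23 and Cyp8b1 at 0.36 ± 0.16. Of 19 genes of bile acid sensing and transport 3 rose, 5 fell and 11 were not called, a share (42.1%) near that of all genes. Slc10a1, the uptake carrier NTCP, rose by 0.32 ± 0.04 and Slco1a1 by 0.34 ± 0.08, while Abcc3, an export pump on the blood side, fell by 0.48 ± 0.09.

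Conjugation and redox genes were mixed. Of 20 glutathione S-transferases 8 rose, 7 fell and 5 were not called, and Gstm3 fell from a median of 278 to 168 CPM (-0.72 ± 0.10), Gstm1 fell by 0.48 ± 0.06 and Gstm7 rose by 0.48 ± 0.04. Among 17 NRF2 and glutathione genes 5 rose and 4 fell, a share called of 52.9% beside 42.3% of all genes. Among them were both subunits of the enzyme that limits glutathione synthesis, Gclc (-0.54 ± 0.09) and Gclm (-0.19 ± 0.04), and Sod1 (0.29 ± 0.05). Of 24 heme and iron genes 6 rose and 10 fell, with the iron exporter Slc40a1 at -0.61 ± 0.06, Blvrb at -0.49 ± 0.06 and Hfe at 0.31 ± 0.05. Beside Mt1, the list of metallothioneins and metal transport had Cp higher (0.27 ± 0.04) and Atp7b lower (-0.34 ± 0.09), 2 called in each direction of 9. The share called in that list (44.4%) was near that of all genes.

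Growth hormone and sex-biased genes had 11 members higher, 2 lower and 9 not called of 22 (median log2 fold change 0.27). Igfbp1, an insulin-repressed binding protein, rose from a median of 151 to 467 CPM (1.72 ± 0.24) and Igfbp2 from 361 to 755 CPM (0.96 ± 0.09). Serpina1e, a male-biased serpin, rose from 2120 to 4400 CPM and Hsd3b5 by 0.42 ± 0.06 on the log2 scale.

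Ribosomal protein genes rose in 42 of 58 cases, fell in 3 and were not called in 13 (median log2 fold change 0.34). Rplp1 and Rplp0 of the ribosomal stalk rose by 0.59 ± 0.07 and 0.55 ± 0.05. In oxidative phosphorylation 33 of 36 genes rose, 0 fell and 3 were not called (median 0.26), with complex I subunits Ndufb10 and Ndufa10 at 0.28 ± 0.04 and 0.23 ± 0.04. Most of these genes are short, and short genes as a whole were also higher in GF libraries. With the length trend removed, 38 ribosomal protein genes rose and 4 fell, and 29 oxidative phosphorylation genes rose and 0 fell. Some sizes shrank, with Rplp1 then at 0.39 and Ndufb10 at 0.13. Rplp0 stayed between 0.44 and 0.58 and Ndufa10 between 0.21 and 0.25 over all alternatives. Chaperones of the heat shock list rose in 7 and fell in 3 of 21 cases, with Hspe1, Ahsa1 and Fkbp4 between 0.32 and 0.33. With the length trend removed Hspe1 stood at 0.205. Endoplasmic reticulum stress genes rose in 9 and fell in 1 of 24, with Sdf2l1 at 0.65 ± 0.12, Manf at 0.43 ± 0.10 and Atf5 at 0.32 ± 0.05. The shares called in the chaperone and stress lists (47.6% and 41.7%) lay near that of all genes (42.3%).

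**Figure D3:**
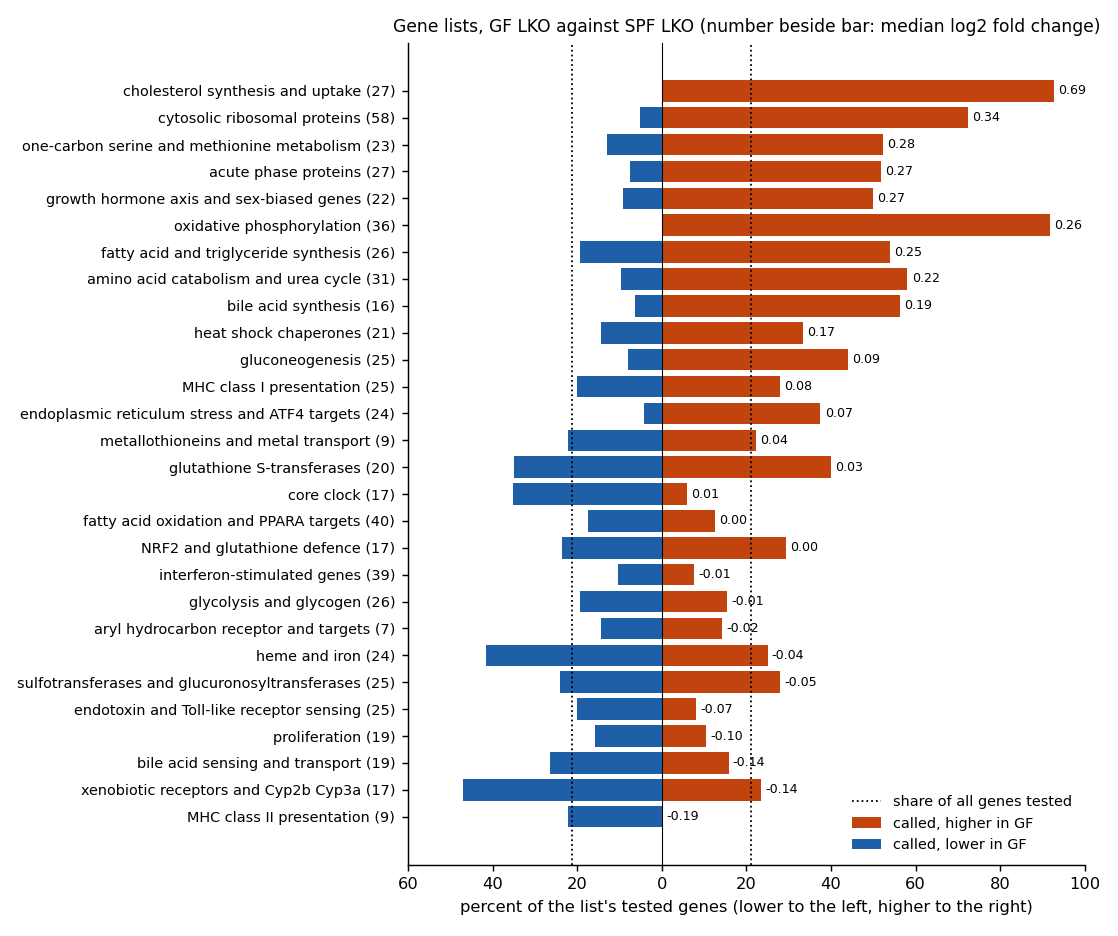
Percent of each list's tested genes called higher (red, to the right) and called lower (blue, to the left) in GF LKO livers, with the number tested in parentheses, the median log2 fold change beside each bar and dotted lines at the shares of all genes tested (21% higher and 21.3% lower). Cholesterol synthesis and oxidative phosphorylation have no bar to the left, and xenobiotic receptors with Cyp2b and Cyp3a genes have the longest bar to the left.

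Of 17 clock genes tested in these livers without BMAL1, 1 rose, 6 fell and 10 were not called, a share (41.2%) near that of all genes. Per3, Nr1d2 and Hlf had the smallest p-values, at -0.63 ± 0.12, -0.42 ± 0.09 and -0.24 ± 0.06. The SPF LKO libraries left out were picked by their clock genes, so the values of clock genes depend on that choice. With all 18 SPF LKO libraries Nr1d2 stood at -0.73 and Arntl at -0.28. Per2, Nr1d1 and Arntl fell by 0.37 ± 0.10, 0.64 ± 0.21 and 0.16 ± 0.07. The call for Arntl (edgeR adjusted p = 0.0392) was lost in 20 of 51 alternatives. DESeq2, the replicate block, the length offset and certain single libraries left out were among them. Per2 lost its call in 3 of these alternatives and Per3 in 1. Npas2, Clock, Per1, Cry1, Cry2, Rora, Dbp, Tef, Nfil3 and Bhlhe40 were not called, with log2 fold changes between -0.36 and 0.46. Bhlhe41 and Ciart were too low to be tested. At single ZT the differences were larger, with 4 clock genes called lower at ZT6, and 0 called at ZT14, ZT18 and ZT22. Nr1d1 stood at -1.83 at ZT2 and -1.45 at ZT6 (edgeR adjusted p = 0.00144 and 0.00929), Dbp at -1.52 and Per3 at -1.12 at ZT6 (adjusted p = 0.00452 and 0.0107). Over all ZT the call for Nr1d1 was lost in 6 of 51 alternatives, among them without ZT2 (-0.39), without ZT6 (-0.41) and without ZT22 (-0.60).

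Immune genes of the liver showed no common direction. Acute phase proteins had 14 genes higher, 2 lower and 11 not called of 27 (median 0.27). Apcs, the serum amyloid P component, rose from a median of 110 to 175 CPM (0.73 ± 0.10), Orm1 from 672 to 1020 CPM and Cp from 2200 to 2650 CPM, whereas Hamp, the iron hormone hepcidin, fell by 0.88 ± 0.17. Among 39 interferon-stimulated genes 3 rose and 4 fell, a lower share (17.9%) than among all genes. Usp18, which restrains interferon signaling, ranged from 4.52 to 9.54 CPM in SPF livers and from 10.8 to 16.5 CPM in GF livers without overlap (0.74 ± 0.07, adjusted p = 3.12e-10), while Isg15 rose by 0.42 ± 0.09 and Oas2 fell by 1.08 ± 0.22.

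Sensors of microbial products were mostly not called, with 2 higher, 5 lower and 18 not called of 25, a share (28%) below that of all genes. Tlr5, the receptor for flagellin, fell from a median of 5.43 to 2.46 CPM (-1.03 ± 0.14, adjusted p = 6.6e-07), and Nod1, which senses peptidoglycan, by 0.50 ± 0.07. Tlr3, which senses double-stranded RNA, fell by 0.29 ± 0.08 and Tlr4, the endotoxin receptor, by 0.32 ± 0.10. Of 25 MHC class I genes 7 rose and 5 fell, a share (48%) near that of all genes. H2-T23 stood at 0.23 ± 0.05, H2-Q10 at 0.24 ± 0.05 and H2-Q7 at -0.62 ± 0.13. Of 9 MHC class II genes 0 rose and 2 fell, a share (22.2%) below that of all genes. Those that fell were Ciita (-0.70 ± 0.16) and H2-Ob (-0.87 ± 0.19), and H2-DMa was not called. Of 19 proliferation genes 2 rose and 3 fell, a share (26.3%) below that of all genes, with Cdkn1a (0.63 ± 0.18) and Ccne2 (0.37 ± 0.10) higher and Wee1 (-0.46 ± 0.09), Rrm2 (-0.65 ± 0.15) and Ccnd1 (-0.40 ± 0.10) lower.

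Immunoglobulin heavy chains differed in opposite directions. Igha, the heavy chain of IgA, ranged from 1.09 to 4.60 CPM in SPF LKO livers, while in GF LKO livers the median was 0 and the highest library held 0.438 CPM (log2 fold change -4.78 ± 0.35, adjusted p = 4.31e-12). Ighm, the heavy chain of IgM, went the other way, from a median of 4.04 to 10.8 CPM (1.48 ± 0.17), and Igkc rose from 2.62 to 5.67 CPM, both with overlap between the groups. Neutrophil and monocyte markers were low and lower still in GF livers, with all 4 tested called lower, namely Csf3r, S100a8, S100a9 and Ccr2, at log2 fold changes between -1.26 and -0.49. Among 12 Kupffer cell markers 3 fell (Csf1r, Cd163 and Marco), 0 rose, a share (25%) below that called among all genes, and the defining Clec4f was not called. With the length trend removed, 5 Kupffer cell markers fell and 0 rose.

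The markers of other cells were checked as sums. The 12 Kupffer cell markers summed to 311 to 449 CPM in SPF and 220 to 443 CPM in GF libraries, the 9 monocyte and neutrophil markers to 2.65 to 11.1 and 2.27 to 7.43 CPM, and the 9 B and plasma cell markers to 7.12 to 17.7 and 12.2 to 39 CPM. The 9 sinusoidal endothelial markers summed to 226 to 388 and 242 to 303 CPM, with Stab1 (-0.44 ± 0.09), Cdh5, Kdr and Fcgr2b lower and Lyve1 higher. Stellate markers summed to 388 to 589 and 373 to 507 CPM with Colec11 alone called (0.17 ± 0.05), cholangiocyte markers to 60.1 to 144 and 48 to 173 CPM with Sox9 lower (-0.59 ± 0.12), and erythroid markers to 138 to 741 and 153 to 339 CPM with Hba-a2 lower. T and NK cell markers summed to 3.01 to 8.82 and 3.72 to 9.02 CPM with Cd4 higher (0.74 ± 0.18), and adipocyte markers to at most 0.292 CPM. Of 8 exocrine pancreas markers, 4 were at 0 in every SPF and 6 in every GF library, and Cela1 (0.33 ± 0.08) and Cela2a (1.75 ± 0.20) were higher. The 8 hepatocyte markers summed to 53400 to 91800 and 62900 to 86800 CPM, and Apoa1, Apob, Serpina1a, Trf and Fgb were called higher by 0.12 to 0.58. The call for Apob was lost in 33 of 51 alternatives and that for Hba-a2 in 11. With the length trend removed, the calls for Kdr, Fcgr2b and Colec11 were lost. All these ranges overlapped between GF and SPF livers, and the part of cell composition in the results was not tested.

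At single ZT the same comparison rests on 3 GF against 3 SPF libraries, or 2 SPF libraries at ZT14 and ZT18. Most calls fell around lights on, with 2292 genes (17.6%) at ZT2 and 1750 (13.4%) at ZT22. At ZT6 and ZT10 the test called 651 (5%) and 395 (3.03%), and in the dark 169 (1.3%) at ZT14 and 353 (2.71%) at ZT18. The called genes were more often higher than lower in GF livers at ZT2 (1325 and 967) and ZT22 (1155 and 595), and 79 were higher and 90 lower at ZT14. These counts are loose, since leaving out a single library gave 35 to 199 genes at ZT14, 13 to 427 at ZT18 and 503 to 2312 at ZT22. Genes called at every ZT numbered 27, and they were Agxt, Nmt2, Lhx6, Ebp, Sult1e1, Cyp3a11, Cyp3a25, Cyp3a59, Usp18, Slc6a12, Isoc2b, Dpy19l3, Csrp3, Sult1a1, Ces1d, Ces2a, Mat1a, Slc25a37, Treh, Tmem97, Bhmt, Bhmt2, Dmgdh, Igha, Csad, Ahsg and Slc23a1.

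The median of the cholesterol synthesis genes rose from 0.19 at ZT2 to 1.17 at ZT14 and came back to 0.51 at ZT22. Medians of the ribosomal protein genes ran the other way, with 0.55 at ZT2, 0.10 at ZT14 and 0.56 at ZT22, and those of oxidative phosphorylation were 0.38, 0.09 and 0.42. These are descriptions, since a test of whether the GF against SPF difference varied with ZT called only 3 genes (0.023%), with 1983 at an unadjusted p under 0.05. For no cholesterol, ribosomal protein or oxidative phosphorylation gene did this test pass, with lowest adjusted p-values of 0.139, 0.142 and 0.145 (edgeR).

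The 3 genes were Crp, Cyp2c70 and Ddit4. Crp, C-reactive protein, was higher in GF livers by 0.80 at ZT2 and 0.88 at ZT22 on the log2 scale and by 0.03 at ZT14 (edgeR adjusted p for variation = 0.0203). Cyp2c70 was higher by 1.28 at ZT2 and 1.19 at ZT22 and lower at ZT14 (-0.14, adjusted p = 0.0203). Ddit4, an inhibitor of mTORC1 that responds to glucocorticoids and fasting, was higher by 1.81, 1.76 and 1.89 at ZT2, ZT6 and ZT10 and lower at ZT18 (-1.20, adjusted p = 0.0399). Tmem150a, Uox and Corin came next, each at an adjusted p of 0.0543. Which genes pass depends on single libraries, since the count went from 0 to 19 when a library was left out.

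**Figure D4:**
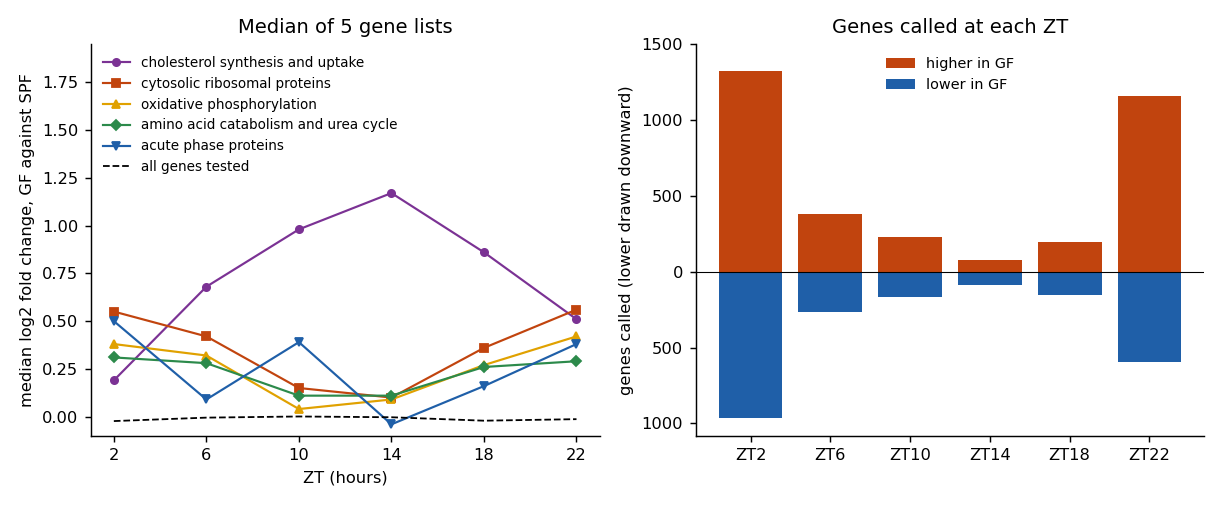
Left, the median log2 fold change of GF LKO against SPF LKO livers at each ZT for 5 gene lists and for all genes tested. Right, the number of genes called higher (red) and lower (blue, drawn downward) at each ZT, from 2292 at ZT2 to 169 at ZT14. The cholesterol list peaks at ZT14, where the ribosomal protein and oxidative phosphorylation lists are low.

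The same comparison in WT livers, 18 GF against 18 SPF libraries, called 4823 of 12776 genes (37.8%). Of the genes tested in both genotypes, 3435 were called with the same sign in both, which is 63.5% of the LKO calls and 71.9% of the WT calls, and 9 were called with opposite signs. Cholesterol synthesis rose in WT livers as well, with 24 of 27 genes higher and a median of 0.90, as did oxidative phosphorylation (34 of 36 genes, median 0.29). None of the cholesterol, ribosomal protein or oxidative phosphorylation genes was called for a difference between the genotypes. In fatty acid oxidation and PPARA targets 17 genes rose and 2 fell in WT livers, against 5 and 7 in LKO livers, and 2 of these genes, Acaa1b and Ehhadh, were called for the difference.

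A test of the difference itself, LKO minus WT in 1 fit over 70 libraries, called 54 of 13500 genes (0.4%), 19 above 0 and 35 below. By the sign of the estimates, called or not in each genotype, 23 of the 54 genes were lower in GF livers of LKO mice and higher in GF livers of WT mice, 12 had the opposite pattern, and 10 were lower in GF livers of both genotypes and lower by more in LKO. The WT libraries SPF WT ZT14 replicate 3 and GF WT ZT6 replicate 3 stood apart. They held 371 and 6100 CPM of Cyp3a11, where the other SPF WT libraries held 4260 to 7450 and the other GF WT libraries 517 to 1120 CPM. Each also lay outside its group, toward the other microbial status, in Igha and Sult1e1. Igha stood at 0.155 CPM (other SPF WT 0.831 to 5.38) and 1.32 CPM (other GF WT at most 0.916). Sult1e1 stood at 2.17 CPM (others 0.0463 to 0.734) and 0.344 CPM (others 0.72 to 6.29). In Csad only GF WT ZT6 replicate 3 lay outside (352 CPM, others 40.8 to 151). Both were kept as labelled, and without them 63 genes were called, 48 of these among the 54.

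Cyp3a11 was lower in GF livers of both genotypes, with a median of 626 CPM in GF WT and 173 CPM in GF LKO livers beside 5210 and 6060 CPM in SPF livers (CPM scaled over all 72 libraries). The log2 fold change was -2.52 in WT and -5.03 in LKO, a difference of -2.51 ± 0.33 (edgeR adjusted p = 5.91e-07). Without the WT libraries that stood apart the log2 fold change in WT was -3.02 and the difference -2.05. Those libraries stood apart in Cyp3a11 itself, so leaving them out narrows its spread and is no separate support. In the libraries kept, GF LKO livers (120 to 346 CPM) lay below all GF WT livers. Ces1e, a carboxylesterase, had the smallest p. It was higher in GF than in SPF livers of WT mice (medians 334 and 247 CPM) and lower in GF than in SPF livers of LKO mice (72.6 and 115 CPM), a difference of -0.97 ± 0.11 (adjusted p = 4.92e-08). Ces1f had a log2 fold change of -0.71 in LKO and 0.05 in WT, where it was not called (edgeR adjusted p of the difference = 1.78e-05).

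Vnn3, a pantetheinase, and Mme were lower in GF LKO than in SPF LKO livers and not called in WT (log2 fold changes 0.09 and -0.14), with differences of -0.61 ± 0.10 and -1.51 ± 0.26. Without the WT libraries that stood apart, Mme was called lower in GF livers of WT mice too (-0.34, edgeR adjusted p = 0.00583). The difference for Mme was then -1.4. Lmo2, a transcriptional cofactor, was higher in GF LKO than in SPF LKO livers (medians 9.95 and 6.45 CPM) and near 4 CPM in both WT groups, a difference of 0.77 ± 0.12. Gpx6, a glutathione peroxidase, rose in GF WT livers (medians 1.71 and 8.56 CPM) but stayed under 1.5 CPM in LKO livers, a difference of -2.02 ± 0.31. The differences of Gstm3, Ugt1a9, Cyp3a59 and Col27a1 lay between -1.23 and -0.77. Without the WT libraries that stood apart the call for Col27a1 was lost (-1.02, edgeR adjusted p = 0.0569), and that for Cyp3a59 stood at -0.59 (adjusted p = 0.00185). No clock gene was called for the difference (lowest adjusted p = 0.418).

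**Figure D5:**
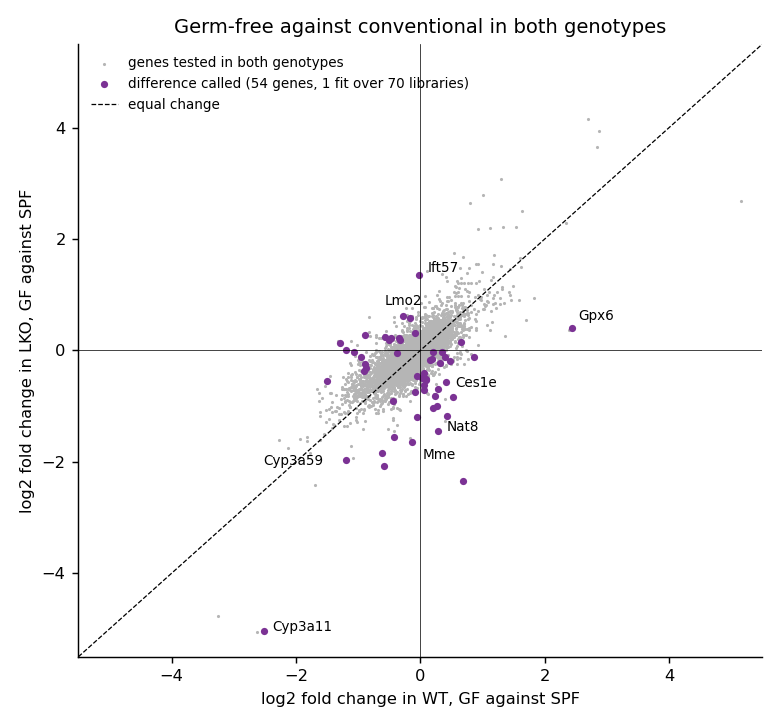
Log2 fold change of GF against SPF livers in LKO (vertical axis) against WT (horizontal axis) for genes tested in both genotypes (grey), with the 54 genes called for the difference in purple from the fit over 70 libraries and a dashed line of equal change. Most purple points lie below the line, with Cyp3a11 lowest at -5.03 in LKO and -2.52 in WT and Gpx6 the furthest right of the purple points at 2.43 in WT and 0.41 in LKO.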

How the data were processed

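RNA from 72 mouse livers was sequenced by the authors as stranded mRNA libraries with single reads of 50 bases, aligned with STAR 2.6.1b to mm10 and counted per gene with featureCounts 2.0.0 on Ensembl 97. The counts the authors deposited are raw and were made without strand and without reads that fit several places or several genes, so near-identical, overlapping and antisense genes are uncertain. Genes were kept by filterByExpr (count minimum 10), scaled by TMM and tested with edgeR 4.0.16 in R 4.3.3 (quasi-likelihood test, ZT as a factor, adjusted p under 0.05 by Benjamini-Hochberg). Each SE is the log2 fold change divided by the square root of F. The difference between genotypes was fitted over 70 libraries, and variation with ZT as an interaction. Of 55573 genes, 55394 matched GENCODE M21.

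Members and gene lists were chosen with earlier results of these data known. Named genes were the 12 largest increases and the 12 largest decreases whose sign was shared by all 6 ZT and whose mean level reached a log2 CPM of 1, the 3 smallest p-values in each list with any further member changed by at least 1 on the log2 scale, clock genes, genes the study names, the smallest p-values for the difference and for variation with ZT, and called markers. Nr1i2, Nr1i3, Cyp3a13, Srebf2, Cyp7a1, Cyp8b1, Hamp, Tlr4, Clec4f, Ehhadh, Cdkn1a, Ccne2 and the genes called at every ZT were named after their values were seen. Some genes that the rule names are not reported here. Alternatives were DESeq2 1.42.0, other filters and scalings, a replicate block, libraries or ZT left out, all 18 SPF LKO libraries, and, chosen after seeing the data, an offset for gene length and a fit of all 18 without ZT. Same-numbered libraries did not deviate together (2 of 16 correlations over 0.1, median -0.05), and nothing says that a number marks a shared litter or day. Scripts were tested on simulated data. The p-values measure the spread between mice.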

Additional observations from a re-analysis of the deposited data

Results flagged for a closer look

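The GF against SPF log2 fold change differed between LKO and WT livers, by a test of the difference itself in edgeR over 70 libraries, for 12 of the genes picked by the naming rule. LKO minus WT it was -2.51 for Cyp3a11, -0.77 for Cyp3a59, -1.23 for Ugt1a9, -1.51 for Mme, -1.13 for Col27a1, -0.99 for Gstm3, -0.68 for Acaa1b, -0.97 for Ces1e, -0.76 for Ces1f, -2.02 for Gpx6, 0.77 for Lmo2 and -0.61 for Vnn3. Ehhadh, Ces1d, Ces1g, Ces2a, Me1 and Nat8, named elsewhere in the text, were also called by that test. The difference between GF and SPF LKO livers varied with ZT for Cyp2c70 and Crp (edgeR adjusted p = 0.0203 each) and Ddit4 (adjusted p = 0.0399).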

How the results depend on the processing

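In LKO livers 4318 to 5855 genes were called under 17 alternatives and 5187 to 5716 with 1 library left out, against 5508. Calls with a log2 fold change of at least 1 (163) numbered 152 to 180 with 1 library left out, 613 with no filter on low counts, 298 with a filter by status and ZT and 499 in DESeq2. No called log2 fold change of a named gene changed sign, while some that were not called and lay near 0 did, such as Npas2 (-0.02 to 0.20) and Fabp1 (-0.21 to 0.02). Of the values of the 166 named genes under other settings, 2724 of 2813 kept their side of the threshold, 70 lost and 19 gained a call. With 1 library left out, 5 of the named genes lost their call in at least 1 case, Apob, Arntl, Hba-a2 and Uox among them.

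Counts at single ZT and of genes varying with ZT (3) moved most. With all 18 SPF LKO libraries they were 391 at ZT6 and 190 at ZT10, rose in the dark to 562 at ZT14 and 1093 at ZT18, and 7 genes varied. With no filter they were 1250, 1002, 782 and 908 at ZT6, ZT10, ZT14 and ZT18 and 1337 varying, with protein-coding genes alone 8 varying, and in DESeq2 985 at ZT6, 344 at ZT14, 678 at ZT18 and 333 varying. With a replicate block the light-phase counts were 1224 at ZT2, 183 at ZT6 and 137 at ZT10, the dark-phase counts 7 at ZT14, 20 at ZT18 and 561 at ZT22, and 0 genes varied, and the numbers do not pair these mice. The causes were not tested.

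Leaving out 1 library gave 0 to 19 varying genes, with 1202 to 2438 calls at ZT2, 167 to 856 at ZT6 and 117 to 494 at ZT10, and in the dark 35 to 199 at ZT14, 13 to 427 at ZT18 and 503 to 2312 at ZT22. Calls fell by over 1.5 times at ZT2 without SPF replicate 1 (1202) or 3 (1410) or GF replicate 1 (1209) or 3 (1438). At ZT6 this held without SPF replicate 1 (293), 2 (368) or 3 (167) or GF replicate 2 (241) or 3 (175). At ZT10 it held without SPF replicate 1 (226), 2 (117) or 3 (249) or GF replicate 2 (135) or 3 (203). At ZT14 it held without SPF replicate 1 (35) or 3 (98) or GF replicate 1 (75) or 2 (69), and at ZT18 without SPF replicate 2 (13) or GF replicate 2 (102). At ZT22 it held without SPF replicate 2 (600) or 3 (921) or GF replicate 2 (503) or 3 (857). Genes varying with ZT numbered 0 without SPF ZT14 replicate 1, GF ZT2 replicate 1, GF ZT10 replicate 3, GF ZT14 replicate 1 or 2 or GF ZT18 replicate 1, 1 without SPF ZT2 replicate 3, SPF ZT10 replicate 2, GF ZT2 replicate 3 or GF ZT22 replicate 3, 5 or 6 without SPF ZT6 replicate 1 or 3, SPF ZT18 replicate 2, SPF ZT22 replicate 3, GF ZT6 replicate 1 or 2 or GF ZT10 replicate 1, and at least 10 without SPF ZT14 replicate 3, SPF ZT18 replicate 3, SPF ZT22 replicate 1, GF ZT2 replicate 2, GF ZT10 replicate 2 or GF ZT22 replicate 1.

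The difference between LKO and WT (54) was called for 27 genes without ZT2, 28 without ZT6, 34 without ZT22, 85 with all 72 libraries, 82 with no filter and 86 in DESeq2. With 2 or 3 libraries per group and ZT, fewer calls at a single ZT do not show a smaller difference.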

Other observations

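These families were chosen after their values were seen, and get no test of their own. Major urinary proteins, lipocalins that male mouse liver secretes and that depend on growth hormone, were higher in GF LKO livers in 18 of 19 genes tested, with 0 lower and a median log2 fold change of 1.04. Reads shared between these near-identical genes were not counted, so single members are uncertain. Among 13 Cyp2c genes 9 were higher and 2 lower (median 0.42), in contrast to the Cyp3a genes, of which 3 of 4 were lower.

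Carboxylesterases, which hydrolyse esters of drugs and lipids, were lower in 7 and higher in 2 of 15 cases (median -0.19). For 5 of them, Ces1d, Ces1e, Ces1f, Ces1g and Ces2a, the difference between LKO and WT livers was called, in each case below 0. Ces1d had a log2 fold change of -1.20 in LKO and -0.06 in WT, and Ces2a one of -0.91 and -0.44. Without the WT libraries that stood apart, Ces1d was called lower in GF livers of WT mice too (-0.26, edgeR adjusted p = 0.0178). Me1, the cytosolic malic enzyme, and Nat8, an acetyltransferase, followed with differences of -1.04 and -1.73.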
